A study of Rattus norvegicus with 23 samples.

Results

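Transcripts of the 5 complexes of oxidative phosphorylation were followed in the hippocampal CA3 field of young rats and of aged rats with or without impaired spatial learning. The members were all probe sets of the array whose annotation names 1 gene with a symbol of the families Nduf (a, b, c, s and v), Sdh (a to d), Uqcr, Cox4 to Cox8 or Atp5. The rule found 101 probe sets for 90 genes, of 31042 probe sets and 14217 named genes in all. It takes in assembly factors that carry these names, and it leaves out subunits named otherwise, such as those encoded by mitochondrial DNA. By function, 44 probe sets belonged to complex I, 10 to complex II, 8 to complex III, 19 to complex IV and 20 to complex V. Ndufa4 and Ndufa4l2 were counted with complex IV, since NDUFA4 is now known as a subunit of that complex. A further 7 probe sets whose annotation names several genes, among them such a symbol, were left out.

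The study holds 23 male Long-Evans rats with 1 array each, with no treatment and no genetic change. Aged impaired rats (n = 8, 24 to 26 months old) performed worse than young rats in the Morris water maze, a test of memory for the place of a platform under water. Aged unimpaired rats (n = 6, 24 to 26 months old) performed within the range of the young, and young rats (n = 9) were 6 months old. The tissue was dissected by hand and holds all cell types of the field, so that fewer cells of a type and less RNA per cell cannot be told apart.

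Oxidative phosphorylation takes place in the inner mitochondrial membrane. Complexes I (NADH dehydrogenase) and II (succinate dehydrogenase, also an enzyme of the citric acid cycle) pass electrons to ubiquinone, complex III (the cytochrome bc1 complex) passes them to cytochrome c, and complex IV (cytochrome c oxidase) passes them to oxygen. Complexes I, III and IV pump protons, and complex V (ATP synthase) uses their return to make ATP. Neurons draw most of their ATP from this pathway, and the nuclear genes of its subunits are known to be expressed together.

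Of the 101 member probe sets, 88 (82 genes) reached 4 on the log2 scale in 6 or more animals and were tested, and 87 of these stood at 4 or above on all 23 arrays. The exception was the second probe set of Ndufaf7, a complex I assembly factor, with 17 such arrays. The other 13 probe sets lay below 4 on every array. Among them were 7 tissue or stress isoforms of complex IV. Cox6a2, Cox7a1 and Cox8b, known from heart and skeletal muscle, averaged 2.19, 3.31 and 2.25 on the log2 scale over the 23 arrays. Cox4i2, known from lung and low oxygen, averaged 2.22, Cox6b2, known from testis, 2.19, Cox7b2 2.19 and Ndufa4l2 3.37. Their widely expressed partners were above the filter in every animal, with Cox4i1 between 12.84 and 13.06, Cox6a1 between 12.48 and 12.73, Cox6b1 between 11.12 and 11.38, and Cox8a between 12.29 and 12.59. Values of different probe sets depend on their probes and were not ranked. The remaining 6 below 4 were the probe set of the complex I assembly factor Ndufaf1 and further probe sets of Atp5if1 (2), Atp5me, Atp5po and Sdhaf2, whose genes had another probe set above the filter. Of the c-ring genes of ATP synthase, Atp5mc3 had a probe set of its own, between 12.81 and 13.10, and Atp5mc1 and Atp5mc2, like Cox7a2 of complex IV, were not analysed here.

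The arrays were alike, each with a mean correlation to the remaining arrays between 0.9959 and 0.9974. All 8 CA3 markers were above the filter. Markers of other fields and cell types were above it too, all 5 of CA1, 3 of 4 of CA2, 1 of 4 on the array of dentate granule cells (not Dsp, Plk5 and Tdo2), 5 of 6 of interneurons, all 7 of astrocytes, 5 of 5 on the array of oligodendrocytes, 3 of 4 of endothelium, 1 of 3 of the choroid plexus (not Kl and Folr1) and 1 of 2 on the array of blood. The 5 microglial markers above the filter were higher in both aged groups than in young rats, Aif1 by 1.07 ± 0.12 (log2 difference ± SE) in aged impaired animals. Marker calls were made at a limma adjusted p of at most 0.05. In aged impaired against young animals, 4 of 8 CA3, 2 of 8 general neuronal and 2 of 3 CA2 markers were called lower. Of 7 astrocyte markers, 2 were called higher. Of all tested probe sets, 5.88% were called lower and 3.88% higher. Of the 3 CA2 markers, Amigo2 was called higher in aged unimpaired than in young animals. It was called lower in aged impaired than in aged unimpaired animals. The mean deviation of these 3 markers ran from -0.2772 to -0.0249 in aged impaired animals. It ran from -0.0019 to 0.2786 in aged unimpaired and from -0.1398 to 0.2025 in young animals. On the log2 scale, the summed CA3 list ran from 13.79 to 14.29 for aged impaired rats, from 14.06 to 14.31 for aged unimpaired rats and from 14.20 to 14.46 for young rats. The summed microglial list (7 genes, Cx3cr1 and Itgam not above the filter) ran from 11.04 to 11.61 for aged impaired rats, from 10.95 to 11.38 for aged unimpaired rats and from 10.40 to 10.73 for young rats. The part of these cell markers in the differences given next was not tested. The log2 difference between the control rows named for the 5′ end and the middle of GAPDH, 5′ minus middle, averaged 2.14 ± 0.09 (SD) for aged impaired rats, 2.28 ± 0.09 for aged unimpaired rats and 2.22 ± 0.10 for young rats. With that difference as a covariate, 4 members were called in aged impaired against young animals, beside 5 without it.

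The first question was how the complexes differed between aged impaired and young animals. Differences were small. Of the 88 tested probe sets, 5 were lower at a limma adjusted p of at most 0.05 (Benjamini-Hochberg over all 14647 tested probe sets) and 0 were higher. The count depended on single animals: leaving out 1 of the 23 gave 1 to 7 calls, and for 9 of them only 1 call was left. Over all tested probe sets, 5.88% were called lower, 3.88% higher and 9.76% were called in either direction, so that the share of members called, 5.68%, was no larger than the background. At an unadjusted p of at most 0.05, 13 members were lower and 2 higher, where 15.7% and 10.6% of all tested probe sets were. The log2 difference, aged impaired minus young, was below 0 for 75 of 88 probe sets, against 56.5% of all tested probe sets, and its median was -0.04, against -0.02. Among 1836 other probe sets with a mean of at least 10, a set chosen after the first results were seen, 1186 lay below 0 with a median of -0.03. Of this set, 175 were called lower and 62 higher, or 12.9% in either direction, against 5.68% of members. Members varied together between animals, so their signs are not independent. The median half-width of the members' 95% intervals was 0.089, and the lowest and highest bounds among them were -0.31 and 0.41.

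By complex, 3 of 8 probe sets were called lower in complex III, 1 of 9 in complex II, 1 of 43 in complex I, 0 of 12 in complex IV and 0 of 16 in complex V. The medians of the log2 difference were -0.09 in complex III, -0.06 in complex V, -0.04 in complexes I and II and -0.03 in complex IV. All 8 probe sets of complex III and all 16 of complex V lay below 0, against 33 of 43 in complex I, 8 of 9 in complex II and 10 of 12 in complex IV. Over the 35 alternatives 65 to 85 members lay below 0. Uqcrq lay above 0 with quantile normalization. Atp5mf did so with quantile normalization, with arrays centred on their median and without aged impaired animal 7 or young animal 7, and Atp5po without either of these animals. Whether the complexes differ from each other was not tested.

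**Figure D1:**
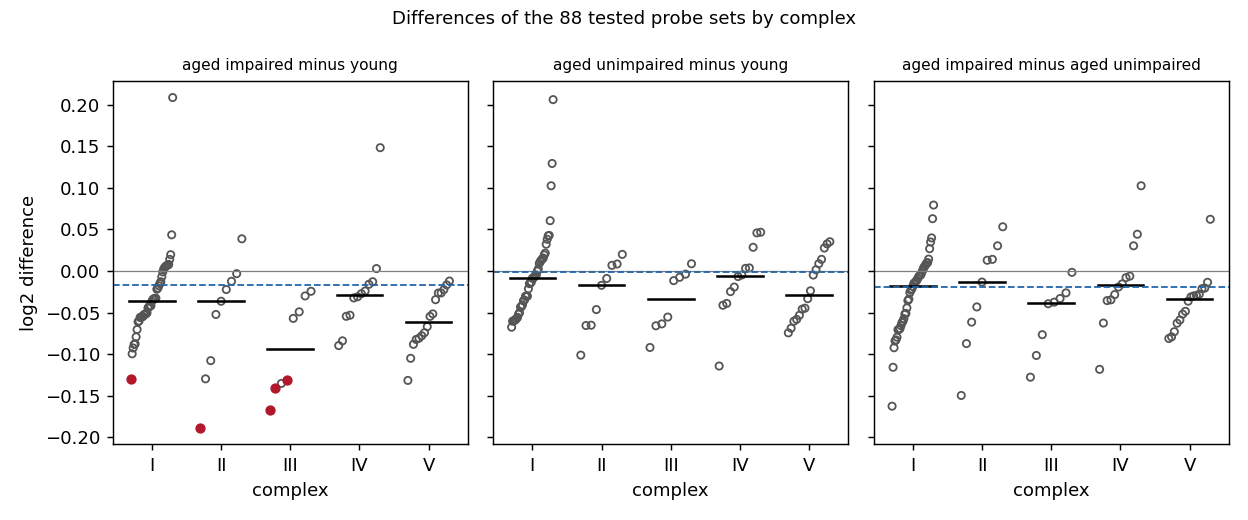
Log2 differences of the 88 tested probe sets by complex in 3 comparisons. Points are probe sets, filled where the limma adjusted p was at most 0.05, black bars are complex medians, the grey line is 0 and the dashed line is the median of all tested probe sets. Filled points stand only in aged impaired minus young, in complexes I, II and III, and complex III has its median lowest there, at -0.09.

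Complex III carried 3 of the 5 calls. Uqcr11, a small accessory subunit, had log2 values of 12.17, 12.25 and 12.34 in aged impaired animals (lowest, median, highest), of 12.22, 12.30 and 12.38 in aged unimpaired animals, and of 12.33, 12.38 and 12.49 in young animals. Of the aged impaired animals, 7 of 8 lay below every young animal, and the aged unimpaired range overlapped both. It fell by 0.13 ± 0.03 SE in aged impaired against young animals, or 1.10-fold (adjusted p = 0.0125), and was called in each of the 35 alternatives run. Uqcrfs1, the Rieske iron-sulfur protein that hands electrons on towards cytochrome c, had values of 10.22, 10.37 and 10.54 in aged impaired, 10.35, 10.46 and 10.58 in aged unimpaired and 10.42, 10.53 and 10.59 in young animals. It was 1.10-fold lower in aged impaired than in young animals (-0.14 ± 0.04 SE, adjusted p = 0.0387), with overlapping groups and 5 of 8 animals below every young animal.

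Uqcrc2 and Uqcrc1 are the core proteins of the complex. The brighter probe set of Uqcrc2 had values of 10.61, 10.78 and 10.91 in aged impaired, 10.79, 10.86 and 10.96 in aged unimpaired and 10.79, 10.96 and 11.08 in young animals, and was 1.12-fold lower in aged impaired than in young animals (-0.17 ± 0.05 SE, adjusted p = 0.0346). The ranges overlapped, with 4 of 8 aged impaired animals below every young animal. Its other probe set differed by -0.03 ± 0.04 SE (adjusted p = 0.683), so the call rests on 1 of its probe sets. Uqcrc1 had values of 11.30, 11.50 and 11.72 in aged impaired, 11.60, 11.64 and 11.66 in aged unimpaired and 11.51, 11.64 and 11.74 in young animals. Its difference of -0.14 ± 0.05 SE had an adjusted p of 0.0641 and did not pass. The remaining members, Uqcrh, Uqcr10 and Uqcrq, differed by -0.06 to -0.02.

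The other calls were of complexes I and II. Ndufb6, an accessory subunit of the membrane arm of complex I, had values of 10.49, 10.54 and 10.72 in aged impaired, 10.48, 10.64 and 10.78 in aged unimpaired and 10.59, 10.71 and 10.81 in young animals. Its groups overlapped, with 5 of 8 aged impaired animals below every young animal, and it was 1.09-fold lower (-0.13 ± 0.04 SE, adjusted p = 0.0465). Sdhaf4, an assembly factor that protects the flavoprotein Sdha before complex II is built, had values of 7.78, 7.96 and 8.08 in aged impaired, 7.90, 8.01 and 8.25 in aged unimpaired and 7.94, 8.13 and 8.41 in young animals. It was 1.14-fold lower in aged impaired than in young animals (-0.19 ± 0.06 SE, adjusted p = 0.0483), with 3 of 8 animals below every young animal. Among the 35 alternatives the call was lost in 21 for Ndufb6, 20 for Sdhaf4, 14 for Uqcrc2 and 14 for Uqcrfs1, with the sign kept.

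**Figure D2:**
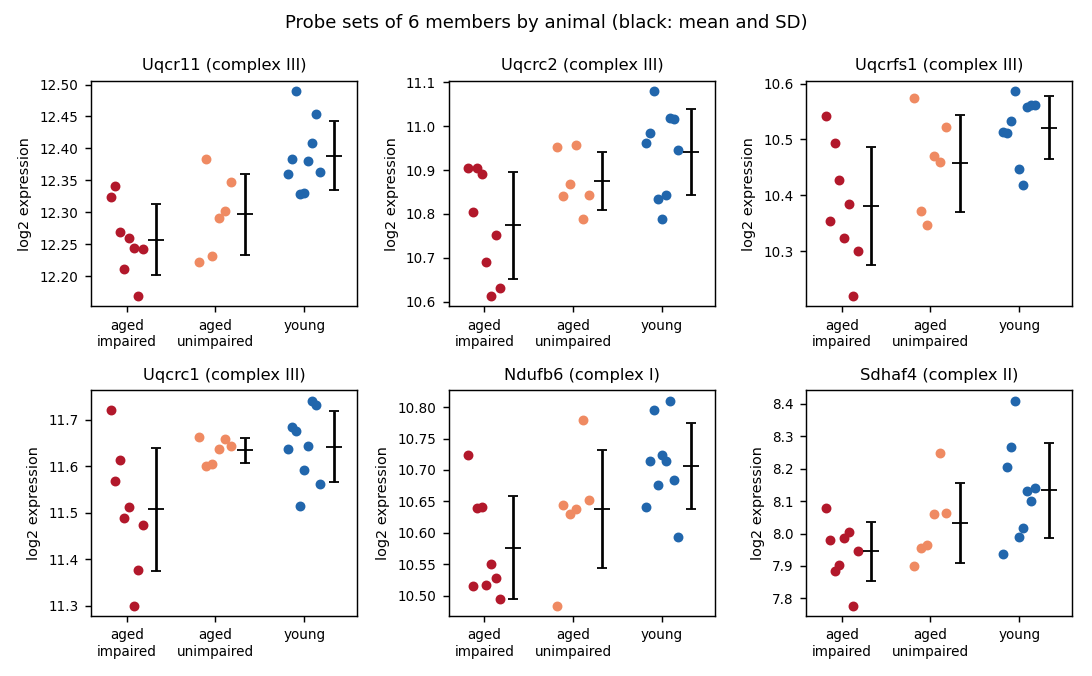
Log2 expression of 6 probe sets by animal in aged impaired (n = 8), aged unimpaired (n = 6) and young rats (n = 9), with the mean and SD in black. Uqcr11 separates aged impaired from young animals most, with 7 of 8 below every young value, and Uqcrc1 did not pass the test.

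The stretch around the start of transcription is shown for 4 of the 5 called genes (that of Uqcr11 was not analysed here), with 250 bases before and 50 after the start, from RefSeq on the assembly GRCr8, so that letters known from nuclear genes of the pathway can be seen in place. Capitals mark a consensus of the factor NRF-1, the letters CCGGAAG of GABP and AAGATGG of YY1, on either strand. In the NRF-1 consensus, an A followed by any base stands between runs of alternating G and C. Each run has 4 letters and starts with G.
Ndufb6 (chr5:60206103-60206402, minus strand): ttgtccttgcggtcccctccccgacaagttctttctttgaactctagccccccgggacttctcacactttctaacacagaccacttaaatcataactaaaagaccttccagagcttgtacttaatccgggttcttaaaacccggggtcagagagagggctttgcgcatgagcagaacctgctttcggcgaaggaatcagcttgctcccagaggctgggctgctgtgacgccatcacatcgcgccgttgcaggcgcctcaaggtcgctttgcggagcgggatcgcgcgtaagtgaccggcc
Sdhaf4 (chr9:33912764-33913063, minus strand): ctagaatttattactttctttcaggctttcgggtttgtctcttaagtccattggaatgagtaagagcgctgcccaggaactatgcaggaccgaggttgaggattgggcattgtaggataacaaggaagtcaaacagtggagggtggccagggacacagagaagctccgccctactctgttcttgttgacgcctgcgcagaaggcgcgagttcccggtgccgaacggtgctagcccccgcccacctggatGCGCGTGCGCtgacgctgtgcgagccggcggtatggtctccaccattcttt
Uqcrc2 (chr1:184598990-184599289, plus strand): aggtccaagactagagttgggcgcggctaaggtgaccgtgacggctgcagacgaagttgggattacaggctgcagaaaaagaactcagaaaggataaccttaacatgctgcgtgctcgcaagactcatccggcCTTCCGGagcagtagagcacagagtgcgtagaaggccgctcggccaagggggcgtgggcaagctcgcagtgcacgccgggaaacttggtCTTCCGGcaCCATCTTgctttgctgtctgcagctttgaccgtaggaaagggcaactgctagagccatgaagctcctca
Uqcrfs1 (chr17:34186352-34186651, plus strand): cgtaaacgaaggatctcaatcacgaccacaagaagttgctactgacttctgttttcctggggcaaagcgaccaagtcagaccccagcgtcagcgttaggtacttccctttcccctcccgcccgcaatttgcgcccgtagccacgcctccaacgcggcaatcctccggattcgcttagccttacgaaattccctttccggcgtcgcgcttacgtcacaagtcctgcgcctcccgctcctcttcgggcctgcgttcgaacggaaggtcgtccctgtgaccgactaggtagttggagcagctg
The NRF-1 letters stood across the start of Sdhaf4, and Uqcrc2 held CCGGAAG at 2 places and AAGATGG at 1, all on the reverse strand. Ndufb6 and Uqcrfs1 held none of these letters in this window. A match is not a site of binding. Of the 90 genes, 82 were matched in the table. The NRF-1 letters were in 17 of these 82 promoters (20.7%), against 6.02% of the 18917 other protein-coding promoters, and the YY1 letters in 24.4% against 7.51%. For GABP the letters GCGGAAG were searched first and were in 23 of 82 member promoters (28.0%) against 7.35% of the others. CCGGAAG, the usual core, was added after those shares had been seen, and was in 30.5% against 11.2%. The GC-rich letters GGGCGG of Sp1 were in 46.3% against 43.1%. TCAAGGTCA of ERR was in only 2 of 82 (2.44%) against 65 of 18917 (0.344%). GGGCGG and GCGGAAG can share letters, and base composition was not matched.

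Within complex I, the next members by p were Ndufaf4, an assembly factor (-0.10 ± 0.04 SE, adjusted p = 0.134), and Ndufab1, the mitochondrial acyl carrier protein (-0.08 ± 0.04 SE, adjusted p = 0.177). The 6 core subunits above the filter, Ndufs1, Ndufs3, Ndufs7, Ndufs8, Ndufv1 and Ndufv2, differed by -0.09 to 0.02, and 0 were called. Of the 11 subunits of the distal membrane arm, 9 lay below 0 and Ndufb6 was called. Of complex II, Sdhd, a membrane anchor, differed by -0.11 ± 0.04 SE at its brighter probe set (adjusted p = 0.123) and Sdhaf3, an assembly factor for the iron-sulfur subunit, by -0.13 ± 0.07 SE (adjusted p = 0.218). The catalytic subunits Sdha and Sdhb differed by -0.01 and -0.02, and both lay above 0 with quantile normalization. The 2 members with an unadjusted p of at most 0.05 in the other direction were Cox5a, a subunit of complex IV (0.15 ± 0.07 SE, adjusted p = 0.176), and 1 probe set of the complex I subunit Ndufv3 (0.21 ± 0.10 SE, adjusted p = 0.178), named after its value was seen. The other probe set of Ndufv3 differed by -0.07.

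In complex V, 0 of 16 probe sets were called and 3 had an unadjusted p of at most 0.05. These were Atp5f1d and Atp5f1c, the delta and gamma subunits of the rotor, and Atp5me, a subunit of the membrane part. Atp5f1d had values of 10.75, 10.88 and 11.11 in aged impaired, 10.77, 10.95 and 11.05 in aged unimpaired and 10.85, 11.04 and 11.11 in young animals (aged impaired minus young -0.13 ± 0.05 SE, adjusted p = 0.112). Atp5f1c differed by -0.11 ± 0.04 SE (adjusted p = 0.134) and Atp5me by -0.08 ± 0.03 SE (adjusted p = 0.148). The 5 subunits of the F1 part, these rotor subunits among them, had a median of -0.08, the 6 of the membrane part -0.05 and the 4 of the peripheral stalk -0.04. The inhibitor Atp5if1 differed by -0.03. In complex IV, Cox7b (-0.09 ± 0.04 SE, adjusted p = 0.111) and Ndufa4 (-0.08 ± 0.04 SE, adjusted p = 0.197) had the lowest p below 0. Of the isoforms named above, Cox4i1, Cox6a1, Cox6b1 and Cox8a differed by -0.02, -0.03, -0.03 and -0.05, and 0 were called.

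**Figure D3:**
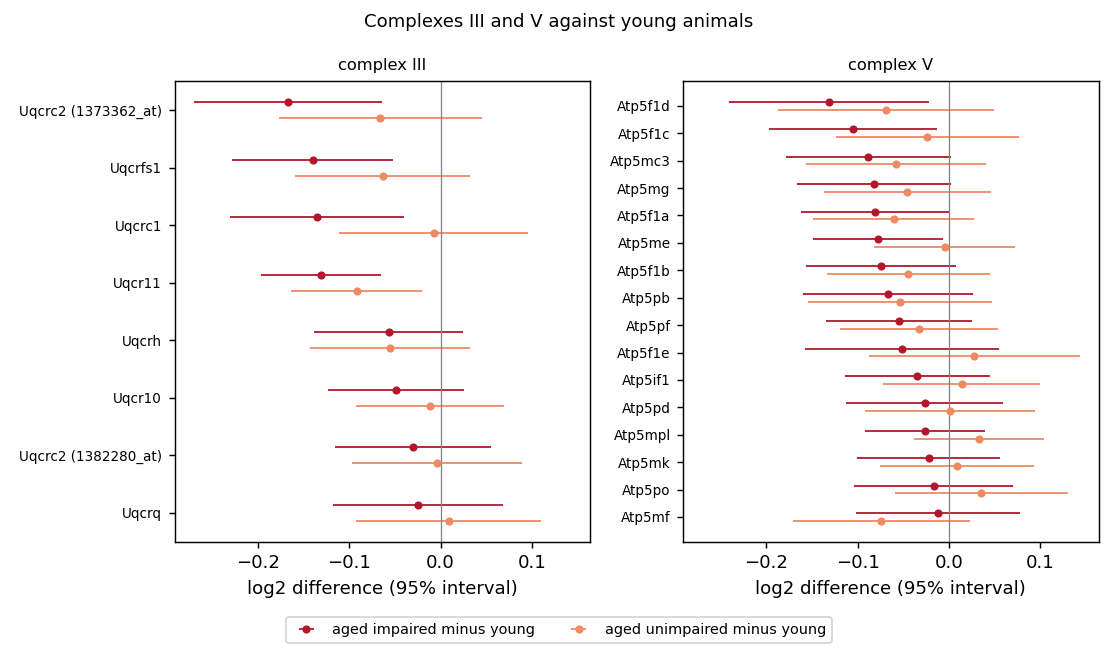
Log2 differences with 95% intervals of all tested probe sets of complexes III and V, for aged impaired minus young and for aged unimpaired minus young. Every aged impaired value lies below 0 in the fit shown (Uqcrq, Atp5mf and Atp5po change sign in some alternatives), and most intervals include 0.

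Aged unimpaired animals were compared with the same young animals. Of the 88 probe sets, 0 were called by limma, where 2.06% of all tested probe sets were, and 2 were lower and 1 higher at an unadjusted p of at most 0.05, where 8.17% and 8.6% of all were. The median log2 difference was -0.01, with 57 of 88 below 0, against 50.9% of all tested probe sets. Among the 1836 other bright probe sets (mean of at least 10), 1101 lay below 0, with a median of -0.02. Uqcr11 differed by -0.09 ± 0.03 SE (adjusted p = 0.169), with 4 of 6 animals below every young animal. Ndufa4 had values of 12.06, 12.11 and 12.27 in aged unimpaired and 12.14, 12.24 and 12.33 in young animals, a difference of -0.11 ± 0.04 SE (adjusted p = 0.188), also with 4 of 6 below. The dim probe set of Ndufaf7 differed by 0.21 ± 0.10 SE (adjusted p = 0.297). By complex the next smallest p were those of Ndufs7, a core iron-sulfur subunit of complex I (0.10 ± 0.06 SE, adjusted p = 0.403), of Sdhaf4 (-0.10 ± 0.06 SE) and Sdha (-0.07 ± 0.05 SE) in complex II, of Uqcrfs1 (-0.06 ± 0.05 SE), of Cox7c (-0.04 ± 0.05 SE), and of Atp5mf (-0.07 ± 0.05 SE) and Atp5f1a (-0.06 ± 0.04 SE) in complex V.

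Between aged impaired and aged unimpaired animals, 0 of 88 probe sets were called by limma, where 0.778% of all tested probe sets were, and 3 were lower and 0 higher at an unadjusted p of at most 0.05, where 8.61% and 6.55% of all were. The median log2 difference, aged impaired minus aged unimpaired, was -0.03, against -0.02 over all tested probe sets, and 68 of 88 lay below 0, against 59.2%. Among the 1836 other bright probe sets (mean of at least 10), 1150 lay below 0, with a median of -0.02. Cox7b had values of 12.32, 12.44 and 12.52 in aged impaired and 12.49, 12.55 and 12.60 in aged unimpaired animals. Of the aged impaired animals, 6 of 8 lay below every aged unimpaired animal (-0.12 ± 0.04 SE, 95% interval -0.20 to -0.04, adjusted p = 0.146). Uqcrc1 differed by -0.13 ± 0.05 SE (adjusted p = 0.228) and the dim probe set of the complex I subunit Ndufa7 by -0.12 ± 0.05 SE (adjusted p = 0.252). Its brighter probe set differed by -0.03. By the same rule Ndufab1 (-0.07), Sdhaf3 (-0.15), Sdhaf4 (-0.09), Uqcrc2 (-0.10), Cox5a (0.10), Atp5me (-0.07) and Atp5mpl, a small subunit of the membrane part (-0.06), had the next smallest p, with adjusted p from 0.34 to 0.58. Of the 5 members called between aged impaired and young animals, the intervals of this comparison all included 0, with Uqcr11 at -0.04 (-0.11 to 0.03).

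With both aged groups together against young animals, 1 of 88 probe sets was called, where 6.9% of all tested probe sets were called and 3.56% called lower. It was Uqcr11 (-0.11 ± 0.03 SE, limma adjusted p = 0.0194), with 11 of 14 aged animals below every young animal. The call was lost in 1 of 34 alternatives, with the replicate number as a block (adjusted p = 0.0511). The comparisons share their animals and are not independent of each other.

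Members varied together from animal to animal. After each group's mean was removed, the median correlation between probe sets of different member genes was 0.52 over the 23 animals, against 0.13 between members and all other tested probe sets and 0.34 between members and other probe sets with a mean of at least 10. Within complexes the median was 0.68 in complex V, 0.63 in IV, 0.53 in III, 0.49 in I and 0.28 in II, and between complexes it was 0.53. These correlations share whole-array shifts. After centring each array on its median over the tested probe sets, the member value was 0.35, that with other probe sets 0.03 and that with the bright ones 0.18. The median pooled SD within groups was 0.085 for members, 0.137 for all tested probe sets and 0.093 for the other bright ones.

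The mean deviation of all 88 members from their own overall means ran from -0.13 to 0.09 in aged impaired animals, with a median of -0.03, from -0.02 to 0.05 in aged unimpaired animals, with a median of 0.00, and from -0.07 to 0.09 in young animals, with a median of 0.03. The groups overlapped. Aged impaired animal 1 had 77 of 88 members above their means and animal 7 had 4, while young animal 3 had 80 and young animal 4 had 11. Animals 1 and 7 also had the highest and the lowest array median of the 23 over the tested probe sets, at 7.72 and 7.54. After centring on that median, the scores ran from -0.08 to 0.03 in aged impaired, from -0.02 to 0.04 in aged unimpaired and from -0.07 to 0.08 in young animals, with medians of -0.01, 0.01 and 0.03. Aged impaired animals 1 and 7 then stood at 0.00 and -0.05. For complex III alone, the centred scores ran from -0.12 to 0.02 in aged impaired, from -0.02 to 0.05 in aged unimpaired and from -0.04 to 0.11 in young animals. These scores carry no test.

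**Figure D4:**
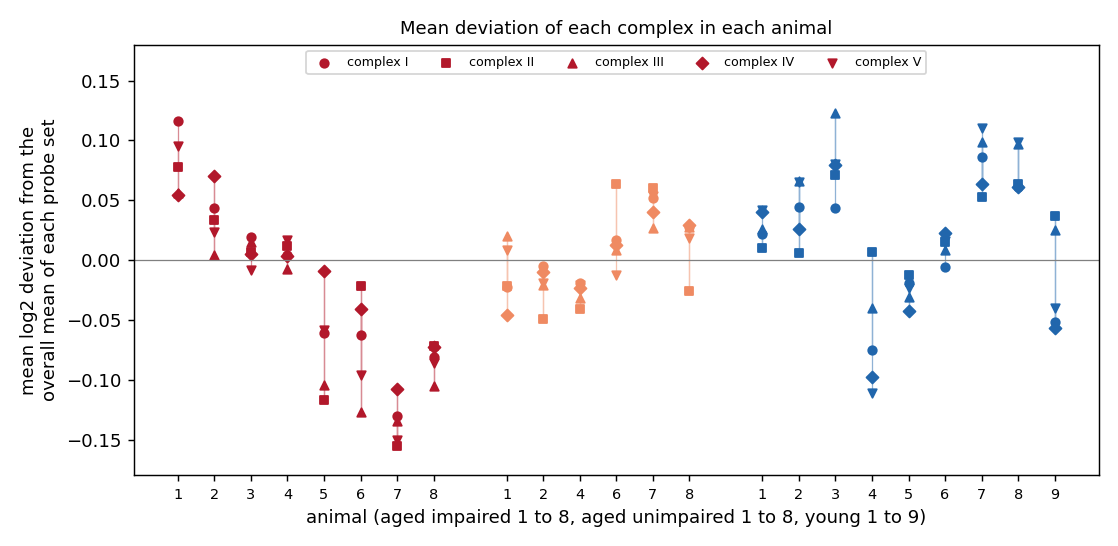
Mean log2 deviation of each complex in each animal, not centred, in aged impaired, aged unimpaired and young rats, where each symbol is a complex. The groups overlap in every complex, and the complexes of 1 animal can lie apart, as in young animal 4, from -0.11 in complex V to 0.01 in complex II.

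Genes around the pathway were counted from lists, each by its probe set with the highest mean, as were the cell markers above. Other probe sets of these genes were not counted. Lower and higher stand here for calls at a limma adjusted p of at most 0.05. Of all tested probe sets, of any brightness, 5.88% were called lower and 3.88% higher in aged impaired against young animals. In aged impaired against young animals, 2 of 37 assembly and cofactor genes were lower, namely Coq5 of ubiquinone synthesis (-0.20 ± 0.06 SE, adjusted p = 0.0334) and the complex III assembly factor Uqcc1 (-0.13 ± 0.04 SE, adjusted p = 0.0422). Of 18 citric acid cycle and pyruvate dehydrogenase genes, Sucla2 and Dlst were lower (-0.18 ± 0.05 and -0.19 ± 0.05 SE, adjusted p = 0.0169 and 0.0204). Of 21 import genes, Tomm70 and Tomm5 were lower (-0.12 and -0.16), of 10 genes of ATP export and buffering, the adenylate kinase Ak4 (-0.28), and of 14 genes of fission, fusion and cristae, Chchd6 (-0.23). Of 14 genes of mitochondrial biogenesis and 12 antioxidant and uncoupling genes, 0 were called. Of 4 electron carriers and subunits outside the naming rule, Etfdh was lower (-0.19 ± 0.04 SE) and Etfa higher (0.22 ± 0.07 SE). Of the 130 genes of these 8 lists, 0 were called by limma in aged unimpaired against young animals, where 2.06% of all tested probe sets were. The same held in aged impaired against aged unimpaired animals, where 0.778% were called. In these 2 comparisons, 11 and 14 of the 130 genes had an unadjusted p of at most 0.05, counted in both directions together. Of all tested probe sets, 8.17% were lower and 8.6% higher at that p in the first, and 8.61% and 6.55% in the second. The lower and higher shares have to be added before they are set beside these counts.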

How the data were processed

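RNA from dissected CA3 of 23 rats was measured on Affymetrix Rat Genome 230 2.0 arrays, 1 array per animal. The authors deposited log2 values made with GCRMA (named in the submitters' processing notes), which corrects background and brings arrays to a common distribution. Shifts shared by most probe sets are thereby reduced, and differences of dim ones are compressed. Shared shifts were not fully removed: array medians over the tested probe sets ran from 7.54 to 7.72. The version used is not given in the sources used here. Arrays give no read depth, and their number limits the precision. Genes were named from the platform's annotation, and all 101 member symbols matched a current table (GRCr8).

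Control probe sets (57) were left out. The 14647 probe sets that reached 4 on the log2 scale in 6 or more animals were fitted with group means, using limma 3.58.1 in R 4.3.3 (20 residual and 2.35 prior degrees of freedom), with two-sided moderated tests and Benjamini-Hochberg adjustment over all of them. A call is an adjusted p of at most 0.05. The procedure was tested on simulated data. Named genes were those called in any comparison, those with the smallest p in each complex (3 for aged impaired against young, 2 for each of the other pairs), the isoforms, and called genes of the lists.

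The members, lists and tests were chosen with earlier results of these data known. The bright comparison set, the scores by animal, the correlations and the promoter letters were chosen after the first fit. Alternatives changed the filter, scaling, weights, prior, block, covariate or animals.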

Additional observations from a re-analysis of the deposited data

Results flagged for a closer look

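Among the 87 groups of values screened for the named members, 5 held an animal far from the rest of its group, where chance flags about 1 group in 20. Cox5a stood at 7.51 in aged unimpaired animal 1, against 8.03 for the nearest animal. The dim probe set of Ndufa7 stood at 7.92 in aged impaired animal 6, against 7.79. Ndufaf4 stood at 8.05 in aged impaired animal 1, against 8.21, and at 8.30 in aged unimpaired animal 2, against 8.32, in a group with an SD of 0.01. The brighter probe set of Sdhd stood at 10.59 in aged unimpaired animal 6, against 10.44. The 5 values came from 5 different animals. Without aged unimpaired animal 1, Cox5a was called higher in aged impaired than in young animals (adjusted p = 0.0486). That animal is in neither of these groups, so the difference stayed the same and only the shared estimate of the spread changed. Between aged impaired and aged unimpaired animals, the difference of Cox5a was 0.10 and ran from 0.01 to 0.14 over the alternatives. The cause of these values was not tested.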

How the results depend on the processing

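The results chosen by the rule for named genes kept their sign in all alternatives run. Among all 88 tested members, 25 changed sign in at least 1 alternative in aged impaired against young animals, with reported differences of at most 0.0435 in size. In aged unimpaired against young animals 29 did so (at most 0.0214). In aged impaired against aged unimpaired animals 33 did so (at most 0.0793), so the count below 0 there depends on the setting. For both aged groups against young, 31 did so (at most 0.0235). In aged impaired against young animals, the 5 calls became 1 with no filter, 1 with only the compared groups in the fit and 1 with the replicate number as a block. Leaving out 1 animal gave 1 to 7 calls: 1 without aged impaired animal 2, 5, 6, 7 or 8 or young animal 2, 3, 7 or 8, 2 without young animal 9, and 3 without young animal 4 or aged unimpaired animal 2, 4, 6 or 8. The counts under the other scalings, filters, weights, prior and covariate lay between 4 and 6. Uqcr11 kept its call throughout, with adjusted p from 0.00574 to 0.0314. In aged unimpaired against young animals, quantile normalization gave 1 call (Ndufa4, adjusted p = 0.0444) and the other settings 0. In aged impaired against aged unimpaired animals, every setting gave 0. For both aged groups against young, the 1 call became 2 with quantile normalization, 2 with array weights and 0 with the replicate block (Uqcr11, adjusted p = 0.0511), and leaving out 1 animal gave 1 to 4, with 4 without aged impaired animal 1 and 2 without aged unimpaired animal 1. A fit of only the compared groups was not run for this comparison. The cause of these changes was not tested.

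An alternative added after seeing the data left out aged impaired animals 1 and 2, which had the lowest GAPDH 5′ minus middle differences of the 23 arrays (2.02 and 2.03). They also had the highest member scores of their group, so their removal lowers that group by construction, and no support is drawn from it. It gave 9 calls against young animals, all lower, and 2 for both aged groups against young. Over the settings other than leaving animals out, the counts over all probe sets ran from 768 to 1704 in aged impaired against young animals (1429 as reported), from 86 to 672 in aged unimpaired against young (302), from 0 to 222 in aged impaired against aged unimpaired (114) and from 509 to 1467 for both aged groups against young (1010). The labels do not say whether the replicate numbers pair the animals. Correlations of the arrays gave no sign of it (median r of 20 same-numbered pairs -0.01, 2 pairs over 0.1, and 3 arrays that correlated best with their own number). Such correlations cannot exclude a pairing.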

Other observations

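Where a gene had 2 tested probe sets, these did not always move together between animals. After group means were removed, their correlation over the 23 animals was 0.82 for Sdhd, 0.47 for Uqcrc2, 0.21 for Ndufa9, 0.12 for Ndufv3, -0.05 for Ndufa7 and -0.15 for Ndufaf7. The dim probe sets of Ndufaf7 and Ndufa9 lay near the filter, at 3.69 to 4.44 and 4.51 to 5.08.

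Among regulators of mitochondrial biogenesis, 0 of 14 passed in any comparison. Polg, the mitochondrial DNA polymerase, differed by -0.29 ± 0.09 SE between aged impaired and aged unimpaired animals (limma adjusted p = 0.127), and Esrra, an estrogen-related receptor, by -0.24 ± 0.11 SE (adjusted p = 0.301). Both were named after their values were seen.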
